A study of Mus musculus with 6 samples.

Results

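T-bet (gene Tbx21), Eomes, Zeb2 and Blimp-1 (gene Prdm1) are transcription factors of natural killer (NK) cell maturation, and their transcripts were compared between NK cells of intestine, skin and spleen. All probes that carried one of these 4 gene symbols were taken, with the older name Zfhx1b counted as Zeb2. They were 9 of the 46643 probes on the array, for 4 of its 31484 gene symbols: 1 probe for Tbx21, 3 for Eomes, 3 for Zeb2 and 2 for Prdm1. Each gene's probes are numbered here by falling mean level.

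The cells were sorted for CD45 and NKp46 and, as the labels spell it, NK11, and against CD3. They came from the intestine, the skin and the spleen of male RAG-2-KO mice on C57BL/6, aged 12 weeks. All 3 groups therefore carried the same deletion, and mice without RAG-2 form no mature T or B cells. Each tissue was measured on 2 Illumina mouse BeadChip arrays, with replicate I of every tissue on slide 1 and replicate II on slide 2, 6 arrays in all. The labels do not say whether the replicates were separate mice or whether mice were pooled, so the p-values rest on a spread between samples that may be technical. Fewer expressing cells and less RNA per cell cannot be told apart in such bulk samples.

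T-bet and Eomes are related T-box factors that bind the same kind of DNA element and drive NK development and the production of cytotoxic proteins and interferon-gamma. Eomes marks conventional NK cells and is scarce in type 1 innate lymphoid cells (ILC1s), which depend on T-bet. Zeb2 is a zinc finger repressor that binds E-box elements and acts with T-bet in the last steps of NK maturation, and Blimp-1 is a zinc finger repressor that also accumulates as NK cells mature.

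The signals were deposited after background subtraction and scaling to one mean per array, and the share of probes detected on an array ran from 32.6% to 39.7%, highest in spleen. A probe counts as detected where its detection p was under 0.01. Before that scaling the arrays were unequally bright, with mean signals of 82.7 and 50.9 in intestine, 43.7 and 53.4 in skin, and 137 and 131 in spleen. Ncr1, which encodes NKp46, was detected on all 6 arrays, at 10.8 and 14.7 in intestine, 33.1 and 32.4 in skin, and 88.2 and 52.9 in spleen. It was lower in intestine than in spleen and in skin (limma adjusted p = 0.000473 and 0.0137). Klrb1c, the gene of NK1.1, had 978 and 1073 in intestine, 2125 and 2003 in skin, and 2311 and 2071 in spleen. This gene too was lower in intestine than in spleen and in skin (limma adjusted p = 0.000334 and 0.000594). Neither Ncr1 nor Klrb1c passed in skin against spleen (limma adjusted p = 0.0615 and 0.808). Ptprc, the gene of CD45, has 3 probes, of which only the tested one with the highest mean is given. It had 164 and 145 in intestine, 137 and 179 in skin, and 324 and 365 in spleen. This probe was lower in both tissues than in spleen (limma adjusted p = 0.00419 in intestine and 0.00646 in skin). Cd3e was detected on none, and nor were Cd4 and Cd5, of a list of 10 T cell markers. The other 7 were tested. Of these 3 were higher and 2 lower in intestine than in spleen, where 19.9% and 27.6% of all tested probes were. In skin against spleen 1 was higher and 1 lower, where 10.8% and 12.1% of all tested probes were. In intestine against skin 3 were higher and 1 lower, where 16.7% and 19.5% of all tested probes were. Their summed signal was 1146 and 1335 in intestine, 982 and 1050 in skin, and 1181 and 1082 in spleen. Rag2 gave signals from 0.341 to 13.2 and passed the test in no comparison, but where its probe lies relative to the deletion is not given, so these values check nothing. All 10 markers of a list for NK cells and ILC1s were detected in at least 1 tissue.

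The promoters of the 4 genes are shown because T-box, ZEB and PRDM factors are known for binding short DNA elements, which were looked for there. The sequences are the 250 bases before the annotated start site, from RefSeq on GRCm38.p6, 5′ to 3′ on the gene's strand, for Tbx21 (chr11:97115332-97115581, minus strand), Eomes (chr9:118477939-118478188, plus strand), Zeb2 (chr2:45117443-45117692, minus strand, the first of its 4 windows) and Prdm1 (chr10:44458749-44458998, minus strand). Capitals mark the E-box CAGGTG that ZEB proteins bind.
Tbx21: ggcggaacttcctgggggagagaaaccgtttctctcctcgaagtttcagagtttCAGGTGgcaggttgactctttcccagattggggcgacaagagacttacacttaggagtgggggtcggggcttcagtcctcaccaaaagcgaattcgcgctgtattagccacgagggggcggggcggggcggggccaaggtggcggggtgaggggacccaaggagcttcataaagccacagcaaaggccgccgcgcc
Eomes: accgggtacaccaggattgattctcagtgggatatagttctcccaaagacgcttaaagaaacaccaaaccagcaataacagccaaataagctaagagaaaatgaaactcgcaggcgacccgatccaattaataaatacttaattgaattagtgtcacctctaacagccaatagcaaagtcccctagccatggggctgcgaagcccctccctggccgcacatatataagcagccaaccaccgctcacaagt
Zeb2: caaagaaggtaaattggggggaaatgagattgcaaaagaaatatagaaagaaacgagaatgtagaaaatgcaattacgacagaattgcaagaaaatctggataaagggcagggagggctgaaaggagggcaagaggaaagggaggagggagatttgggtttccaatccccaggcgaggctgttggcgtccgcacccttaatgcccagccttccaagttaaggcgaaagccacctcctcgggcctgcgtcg
Prdm1: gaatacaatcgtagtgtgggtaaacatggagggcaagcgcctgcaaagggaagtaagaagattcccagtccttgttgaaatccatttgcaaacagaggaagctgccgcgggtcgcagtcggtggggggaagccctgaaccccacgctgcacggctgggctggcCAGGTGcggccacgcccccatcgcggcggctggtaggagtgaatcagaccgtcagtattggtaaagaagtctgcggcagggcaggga
Both strands were searched for the E-box CAGGTG, the T-box core GGTGTGA and the Blimp-1 core AGNGAAAG, of which the first 2 can overlap in the letters GGTG. The E-box begins 196 bases before the start site in Tbx21 and 87 bases before it in Prdm1, and it is found in 20.2% of all 32851 promoter windows of 300 bases. The Blimp-1 core begins 21 bases past the start site in Tbx21 and lies in the second and the third window of Zeb2. These windows overlap, and both matches are the same site. This core is found in 8.63% of all windows. The T-box core, present in 3.98% of all windows, is not in the windows of the 4 genes. A match describes letters only and shows no binding.

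Tbx21, the T-bet gene, was detected on all 6 arrays. Its signals were 653 and 669 in intestine, 555 and 658 in skin, and 732 and 890 in spleen. The spleen arrays gave the highest signals and skin replicate I the lowest, but after normalization the tissues overlapped in every pair. Differences are given on the normalized log2(signal + 16) scale ± the SE from limma (n = 2 arrays per tissue), and each adjusted p is a limma p after Benjamini-Hochberg adjustment over all 18583 probes tested. A probe passed where this was under 0.05. The scale understates the change of dim genes. Intestine minus spleen was -0.12 ± 0.16 (95% interval -0.48 to 0.23, limma adjusted p = 0.537), and skin minus spleen was -0.27 ± 0.16 (-0.62 to 0.09, adjusted p = 0.238). Intestine minus skin was 0.14 ± 0.16 (-0.21 to 0.50, limma adjusted p = 0.531). Tbx21 did not pass in any comparison. Without spleen replicate II the intestine minus spleen value was 0.04 (limma adjusted p = 0.906). With each array scaled to one median in place of quantile normalization (median scaling), under which the median of all probes also moved down, skin minus spleen was -0.48 (limma adjusted p = 0.0342).

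**Figure D1:**
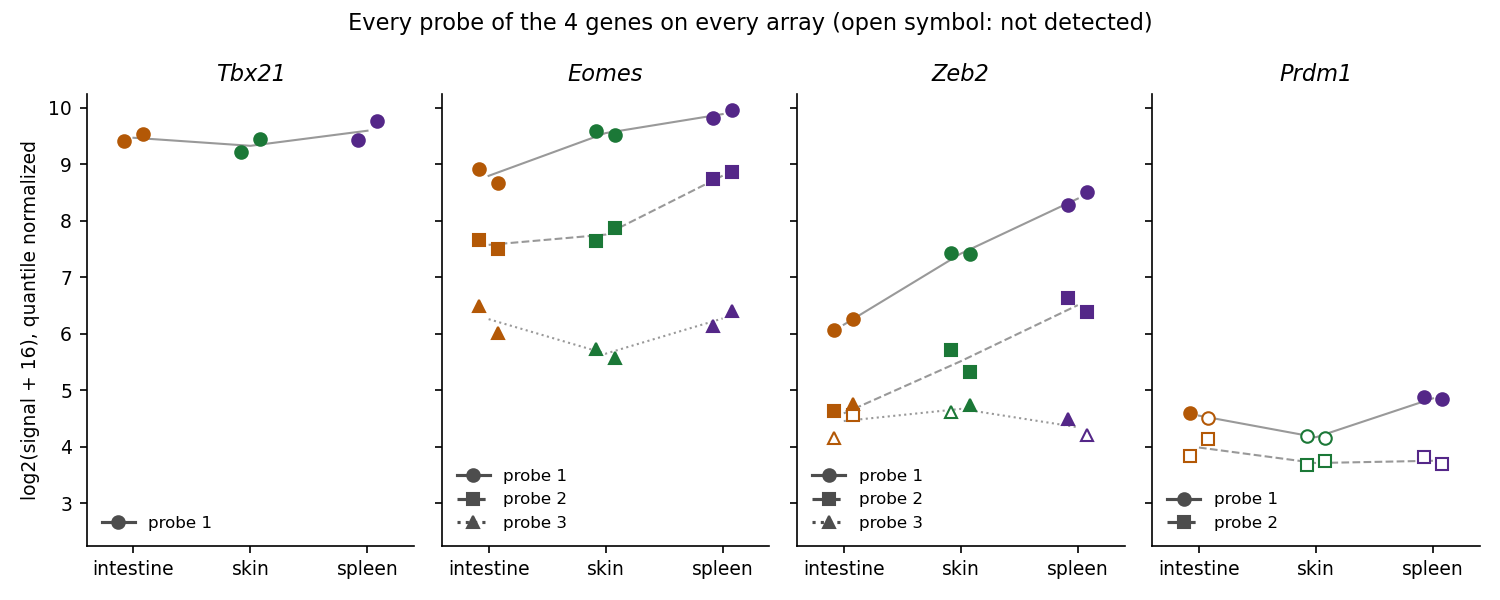
Normalized log2(signal + 16) of every probe of Tbx21, Eomes, Zeb2 and Prdm1 (vertical axis) on the 2 arrays each of intestine, skin and spleen (horizontal axis). Points are arrays, lines join the tissue means, and an open symbol marks an array on which the probe was not detected. Tbx21 overlaps between tissues, Zeb2 probes 1 and 2 step up over intestine, skin and spleen, and the Prdm1 probes lie near the floor.

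Eomes, the factor of conventional NK cells, was detected by all 3 of its probes on all 6 arrays, and probes 1 and 2 were lower in intestine than in spleen. Probe 1 had signals of 452 and 349 in intestine, 735 and 692 in skin, and 952 and 1019.6 in spleen. Its intestine arrays lay below all others, and its skin arrays lay between those of intestine and spleen without overlap. Probe 1 was 2.13-fold lower in intestine than in spleen (log2 difference -1.09 ± 0.15, limma adjusted p = 0.000229), with -0.90 on slide 1 and -1.29 on slide 2. It was 1.69-fold lower in intestine than in skin (-0.76 ± 0.15, limma adjusted p = 0.00261). Skin against spleen did not pass (-0.34 ± 0.15, 95% interval -0.66 to -0.01, limma adjusted p = 0.115), although it did with median scaling, at -0.53 (adjusted p = 0.0261), and with the deposited scaling alone, at -0.46 (adjusted p = 0.0413).

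Probe 2 of Eomes placed skin nearer to intestine. Its signals were 162 and 140.2 in intestine, 178 and 215 in skin, and 461 and 496 in spleen. It was 2.34-fold lower in intestine than in spleen (-1.22 ± 0.15, limma adjusted p = 0.000115) and 2.06-fold lower in skin than in spleen (-1.04 ± 0.15, limma's adjusted p = 0.00210). The signals of intestine lay below those of skin, but the normalized values overlapped and did not pass (-0.18 ± 0.15, 95% interval -0.51 to 0.14, limma adjusted p = 0.370).

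Probe 3, the dimmest for Eomes, ordered the tissues in another way. It had 63.4 and 40.6 in intestine, 35.4 and 30.4 in skin, and 67.7 and 82.8 in spleen. Intestine and spleen overlapped after normalization (-0.01 ± 0.18, 95% interval -0.42 to 0.39, limma adjusted p = 0.961). Slide 1 gave 0.36 and slide 2 -0.38, and the sign turned without intestine replicate II (0.23) or spleen replicate II (0.12). Skin was lower than spleen (-0.62 ± 0.18, limma adjusted p = 0.0361), a call lost without either spleen array or either skin array (-0.75 to -0.49, adjusted p 0.0971 to 0.242), with an offset of 64 (adjusted p = 0.0629) or with no filter (0.0729). Intestine was higher than skin (0.61 ± 0.18, limma adjusted p = 0.0241), a call lost without intestine replicate I (0.37), skin replicate I (0.70) or skin replicate II (0.52), with median scaling (0.50, adjusted p = 0.0537) or with the deposited scaling alone (0.46, 0.0604). The 3 probes thus placed skin differently, and probe 3 showed no fall in intestine that passed the test. Which transcript each one reads is not given in the files.

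Within each array, Eomes probe 1 was also set against Tbx21. Since the probes differ in brightness, only the change of this difference between tissues can be read, not its sign. It was -0.49 and -0.86 in intestine, 0.38 and 0.07 in skin, and 0.39 and 0.19 in spleen, so that both intestine arrays lay below the other 4. The mean differed by -0.97 between intestine and spleen, by -0.07 between skin and spleen and by -0.90 between intestine and skin. An exact permutation test over arrays (two-sided, n = 2 per tissue) gave p = 0.333, 0.667 and 0.333, where 0.333 is the smallest p that this design allows. These values hold for Eomes probe 1 alone, and probes 2 and 3 were not set against Tbx21 in this way. Skin minus spleen was -1.04 for Eomes probe 2, beside -0.27 for Tbx21. Intestine minus spleen was -0.01 for Eomes probe 3, beside -0.12 for Tbx21.

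**Figure D2:**
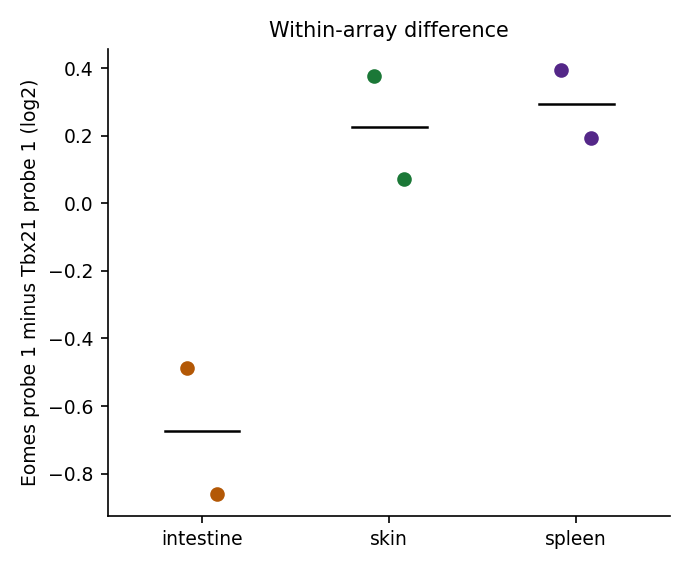
Log2 value of Eomes probe 1 minus that of Tbx21 on the same array (vertical axis) for intestine, skin and spleen (horizontal axis), with points for arrays and bars for tissue means. The intestine arrays, at -0.49 and -0.86, lie below the other 4, which run from 0.07 to 0.39.

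Zeb2, the repressor that acts with T-bet in late maturation, was lower in intestine and in skin than in spleen by its probes 1 and 2. Probe 1 was detected on all 6 arrays, with signals of 42.8 and 50.3 in intestine, 150.2 and 151 in skin, and 336 and 389 in spleen. The 3 tissues did not overlap, and intestine was lowest. Probe 1 was 4.70-fold lower in intestine than in spleen (log2 difference -2.23 ± 0.14, 95% interval -2.55 to -1.91, limma adjusted p = 2.53e-06), with -2.22 on slide 1 and -2.25 on slide 2. This difference lay at the 0.39 percentile of all tested probes. It was 1.96-fold lower in skin than in spleen (-0.97 ± 0.14, limma's adjusted p = 0.00282), with -0.85 on slide 1 and -1.09 on slide 2, and 2.39-fold lower in intestine than in skin (-1.26 ± 0.14, limma adjusted p = 0.000115).

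Probe 2 of Zeb2 gave the same order. It had 7.23 and 8.01 in intestine, 34.5 and 23.0 in skin, and 100.3 and 82.0 in spleen, and intestine replicate II was the one array on which it was not detected. It was 3.77-fold lower in intestine than in spleen (-1.92 ± 0.17, limma adjusted p = 1.46e-05), 1.99-fold lower in skin than in spleen (-0.99 ± 0.17, limma's adjusted p = 0.00491) and 1.90-fold lower in intestine than in skin (-0.92 ± 0.17, limma adjusted p = 0.00178). These differences of a dim probe depended on the offset. With an offset of 64 they were -0.95, -0.57 and -0.38 in the same order, and all 3 passed. The skin call did not hold without spleen replicate I, at -0.87 (adjusted p = 0.0596). Probe 3 of Zeb2 was detected on 3 arrays of different tissues, with signals from 1.51 to 11.2, and was not tested.

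Macrophages also express Zeb2, so their markers are given beside it. Of a list of 14 markers of macrophages, monocytes and dendritic cells, 8 were tested. In intestine 0 were higher and 6 lower than in spleen, where 27.6% of all tested probes were lower. In skin 0 were higher and 6 lower than in spleen, where 12.1% of all tested probes were lower. The summed signal of the list was 281 and 237 in intestine, 362 and 385 in skin, and 528 and 489 in spleen. Csf1r, Flt3, Clec9a, Cd14 and Fcgr1 were detected on none of the arrays. Between intestine and skin 0 of the 8 passed, or 1 was lower in intestine with the slide as a block. Of all tested probes 16.7% were higher and 19.5% lower in intestine against skin. The part of such cells in the Zeb2 differences was not tested.

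Prdm1, the Blimp-1 gene, was measured at the limit of detection. Probe 1 had signals of 6.72 and 7.36 in intestine, 2.83 and 1.98 in skin, and 14.5 and 12.9 in spleen. It was detected on both spleen arrays and on intestine replicate I and on no skin array, and entered the test only through spleen. Skin was at least 1.22-fold lower than spleen (measured log2 difference -0.69 ± 0.13, limma adjusted p = 0.00808), where the bound replaces the undetected skin signals by the lowest detected signal of each array. Since the filter kept the probe for its spleen signals, a lower value in the other tissues is favoured by that choice. Leaving out spleen replicate I (-0.66) or spleen replicate II (-0.69) ended this call, with adjusted p-values of 0.0981 and 0.0827. Intestine against spleen did not pass (-0.31 ± 0.13, 95% interval -0.60 to -0.01, limma adjusted p = 0.0775). It did with median scaling, at -0.40 (adjusted p = 0.0269), and with the deposited scaling alone, at -0.37 (adjusted p = 0.0392), but relative to the median of all probes it was -0.10 under both, against -0.24 with quantile normalization. The measured difference of intestine minus skin was 0.38 ± 0.13 (limma adjusted p = 0.0437), but with the skin signals at their bound it was -0.02, so no rise is shown. The call ended with an offset of 32, at 0.21 (adjusted p = 0.110), among others, and without any 1 array other than intestine replicate II (adjusted p 0.0880 to 0.131). Probe 2 of Prdm1 lay between -4.60 and 1.84, was detected on no array and was not tested.

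Plasma cells and keratinocytes also express Prdm1. Of 10 markers of B and plasma cells, 7 were detected on no array, among them Jchain, Sdc1 and Tnfrsf17, and 3 were tested. Of these 1 was higher in intestine than in spleen, 1 was lower in skin than in spleen, and 1 was higher in intestine than in skin. The shares of all tested probes with these calls were 19.9%, 12.1% and 16.7%. Their summed signal was 39.0 and 49.2 in intestine, 27.1 and 29.7 in skin, and 28.5 and 31.7 in spleen. Of 10 keratinocyte markers, 6 were detected on no array, among them Krt5, Krt14 and Krt1, and 3 were tested. Of these 2 were higher and 1 lower in intestine than in spleen, and 1 was higher in skin than in spleen. The shares of all tested probes with these calls were 19.9%, 27.6% and 10.8%. Their summed signal was 70.2 and 71.0 in intestine, 76.3 and 58.0 in skin, and 50.8 and 48.8 in spleen. The part of such cells in the Prdm1 values was not tested.

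**Figure D3:**
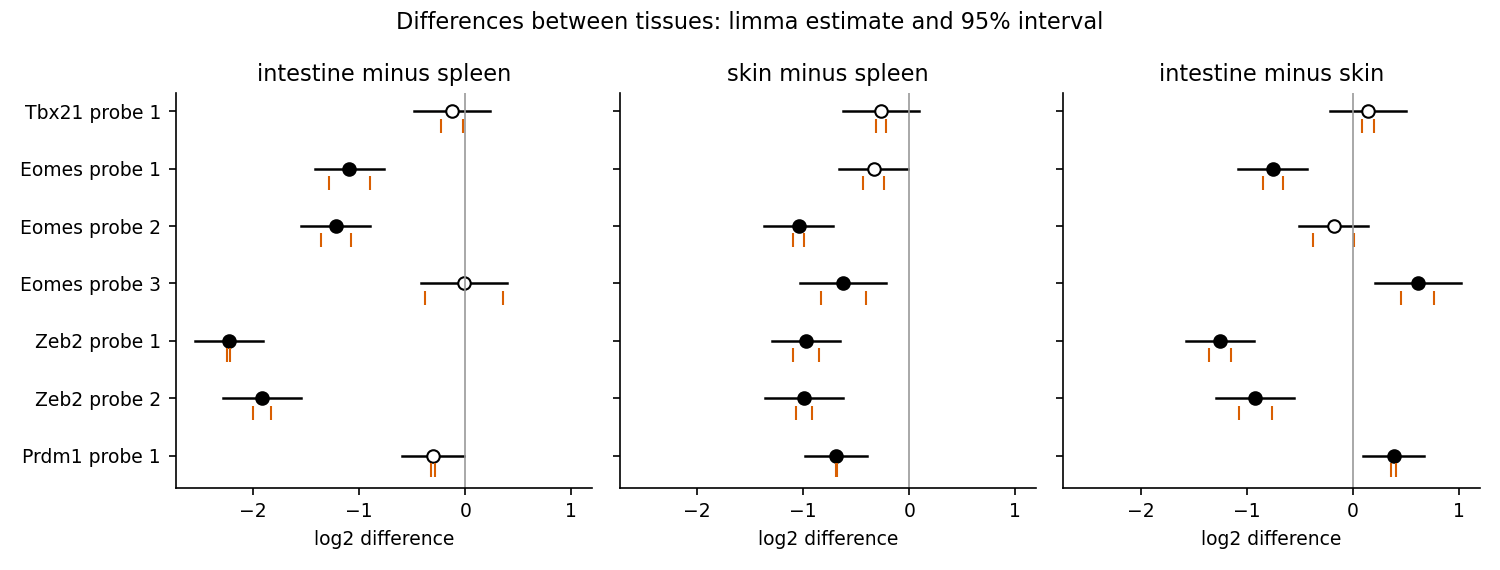
Log2 difference of the 7 tested probes for intestine minus spleen, skin minus spleen and intestine minus skin (horizontal axes). Circles are limma estimates, filled where the adjusted p is under 0.05, bars are 95% intervals, and short coloured ticks are the values within slide 1 and within slide 2. Zeb2 probe 1 lies farthest from 0 in intestine minus spleen, at -2.23.

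Of the 9 probes 7 passed the detection filter, and since they serve 4 genes they are not independent of one another. In intestine against spleen 4 were lower, 0 higher and 3 did not pass, where 27.6% of all tested probes were lower and 19.9% higher. In skin against spleen 5 were lower, 0 higher and 2 did not pass, where 12.1% of all tested probes were lower and 10.8% higher. Prdm1 is 1 of these 5. In intestine against skin 3 were lower, 2 higher and 2 did not pass, where 19.5% of all tested probes were lower and 16.7% higher. The 2 higher ones were Eomes probe 3 and Prdm1 probe 1, with the limits given above. The median over all tested probes was -0.07, -0.04 and -0.05 in these comparisons. The comparisons share arrays, so their counts are not independent.

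A list of 25 genes was taken as mature NK genes that depend on the 4 factors, and 21 of them were tested. Whether each member marks mature cells or depends on a factor was not tested. The lists named here were chosen with earlier results of these data known. In intestine against spleen 12 were lower, 3 higher and 6 did not pass, with a median of -0.99 (-0.83 with undetected members at their bound). Of all tested probes 27.6% were lower and 19.9% higher in that comparison. S1pr5, a sphingosine-1-phosphate receptor used for tissue exit and a target of T-bet and Zeb2, had signals of 8.22 and 12.6 in intestine, 255 and 203 in skin, and 1052 and 1098.5 in spleen. Its 3 tissues did not overlap. S1pr5 was 37.7-fold lower in intestine than in spleen (-5.24 ± 0.16, limma adjusted p = 1.43e-07), 4.14-fold lower in skin than in spleen (-2.05 ± 0.16, limma's adjusted p = 0.000101) and 9.10-fold lower in intestine than in skin (-3.19 ± 0.16, adjusted p = 7.01e-07). The chymase gene Cma1 (-3.98 ± 0.20) and Cx3cr1, the receptor of fractalkine (-2.91 ± 0.19), were lower in intestine than in spleen as well. The sizes of these differences depended on the offset. With an offset of 64, intestine minus spleen was -3.84 for S1pr5, -3.02 for Cma1 and -1.72 for Cx3cr1, and intestine minus skin was -1.98 for S1pr5, and each of these passed.

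In skin against spleen 9 members of this list were lower, 3 higher and 9 did not pass (median -0.50, or -0.32 with bounds). The shares over all tested probes were 12.1% lower and 10.8% higher. Cma1 (-1.94 ± 0.20) and the integrin gene Itga4 (-1.28 ± 0.14) were lower beside S1pr5. Higher calls numbered 1 without any one of the spleen or skin arrays, and lower calls 4 without spleen replicate I, 3 without spleen replicate II and 4 without skin replicate I. In intestine against skin 12 were lower, 3 higher and 6 did not pass (median -0.59, or -0.52 with bounds). Of all tested probes 19.5% were lower and 16.7% higher in this comparison. The chemokine receptor gene Cxcr3 was 4.43-fold lower there (-2.15 ± 0.14, limma adjusted p = 3.37e-06), while Il12rb2, a chain of the interleukin-12 receptor, was higher in intestine (2.27 ± 0.14).

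Beside these counts, markers of NK cells and ILC1s, which share Ncr1, Prf1, Gzma and Il2rb with that list, also moved. Of 10 tested, 0 were higher and 8 lower in intestine than in spleen, where 19.9% of all tested probes were higher and 27.6% lower. In skin against spleen 0 were higher and 4 lower, where 10.8% and 12.1% of all tested probes were. In intestine against skin 1 was higher and 7 lower, where 16.7% and 19.5% of all tested probes were. Their summed signal was 13172 and 15546 in intestine, 22204 and 23512 in skin, and 23526 and 23993 in spleen. Erythroid markers summed to 1114 and 692 in intestine, 1030.2 and 783 in skin, and 11704 and 17610.0 in spleen. Fibroblast and stroma markers summed to 1837 and 1736 in intestine, 3784 and 3712 in skin, and 1041 and 1028 in spleen, most of it from Thy1, and 6 of the 10, among them Col1a1 and Col1a2, were detected on no array. Endothelial markers summed to 589 and 759 in intestine, 221 and 259 in skin, and 256 and 254 in spleen, and 4 of the 8, among them Cdh5 and Tek, were detected on no array. The part of any of these in the counts was not tested.

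Genes of less mature NK cells and ILC1s formed a list of 20, of which 17 were tested. In intestine against spleen 12 were higher, 1 lower and 4 did not pass, with a median of 1.48. The shares over all tested probes were 19.9% higher and 27.6% lower. Itgae, the CD103 integrin chain (3.79 ± 0.35, other probes 0.74 to 3.91), the homing receptor gene Ccr7 (3.61 ± 0.14) and Cd69, which opposes tissue exit (3.24 ± 0.21, other probes 1.34 to 3.16) rose most. Lower calls numbered 2 without intestine replicate II, and with median scaling 10 were higher and 4 lower, or 11 and 4 with the deposited scaling alone. In skin against spleen 4 were higher, 6 lower and 7 did not pass, where 10.8% of all tested probes were higher and 12.1% lower. The median of 0.18 turned to -0.13 with median scaling and -0.06 with the deposited scaling alone. Cd69 (1.93 ± 0.21, other probes 0.23 to 1.22), Thy1 (1.86 ± 0.13) and Rgs1, a regulator of G protein signalling (1.12 ± 0.30, other probe 0.51), were higher in skin, the last of them not without spleen replicate I (0.57), skin replicate I (1.18) or skin replicate II (1.04). Higher calls numbered 2 without spleen replicate I, skin replicate I or skin replicate II, and lower calls numbered 1 without either spleen array and 3 without either skin array. In intestine against skin 12 were higher, 4 lower and 1 did not pass (median 1.3), where 16.7% of all tested probes were higher and 19.5% lower. Ccr7 (3.54 ± 0.14), the stem cell factor receptor gene Kit (3.44 ± 0.13) and Cxcr6, the receptor of CXCL16 (3.32 ± 0.14), were in front. The name of this list does not identify the cells, and which cells carried these transcripts was not tested.

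**Figure D4:**
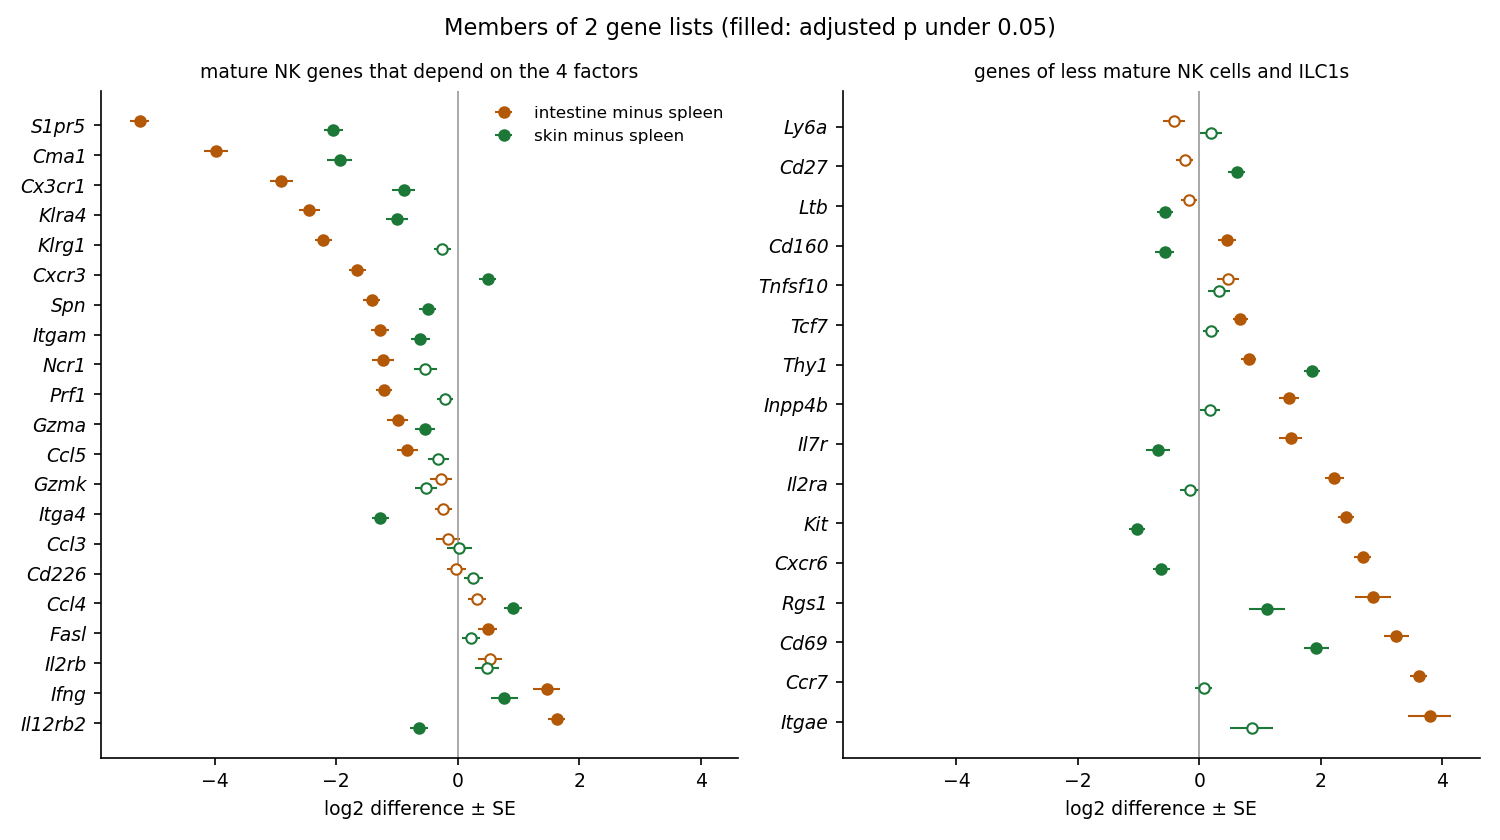
Log2 difference ± SE of tested members of 2 gene lists, for intestine minus spleen and skin minus spleen. On the left are 21 genes taken as mature NK genes, on the right all but 1 of 17 taken as genes of less mature NK cells and ILC1s. Filled circles passed an adjusted p under 0.05. S1pr5 lies farthest to the left in both comparisons of the left panel, and Itgae and Ccr7 farthest to the right in intestine minus spleen.

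Factors that regulate or partner the 4 genes were taken as a list of 31, of which 27 were tested. In intestine against spleen 14 were higher, 7 lower and 6 did not pass (median 0.53, or 0.40 with bounds). Of all tested probes 19.9% were higher and 27.6% lower, so the lower calls were no larger a share. Nfil3, a factor needed for NK development and for the expression of Eomes, was 3.70-fold higher in intestine (1.89 ± 0.14, limma adjusted p = 4.70e-06), with signals of 2853 and 2647 in intestine, 1068 and 1212 in skin, and 751 and 792 in spleen. Bhlhe40 (2.0 ± 0.17) and the Ikaros family gene Ikzf3 (1.49 ± 0.15) were higher too, although the other probes of Ikzf3 gave -0.49 to 0.09. In skin against spleen 3 were higher, 6 lower and 18 did not pass (median -0.16, or -0.12 with bounds), and 10 were lower with median scaling. The shares over all tested probes were 10.8% higher and 12.1% lower. Lef1 (-1.10 ± 0.17, other probes -0.80 to 0.34), Id2, a partner that opposes E proteins (-0.95 ± 0.14, other probe -0.44), and Irf1 (-0.73 ± 0.16, other probes -1.31 to -1.05) were lower in skin. Higher calls numbered 1 without skin replicate I and 0 without skin replicate II or either spleen array. Lower calls numbered 2 without either spleen array and 3 without either skin array, and Irf1 did not pass without spleen replicate I (-0.76), spleen replicate II (-0.72) or skin replicate II (-0.63). In intestine against skin 15 were higher, 3 lower and 9 did not pass (median 0.61), and 5 were lower without intestine replicate II. Of all tested probes 16.7% were higher and 19.5% lower in intestine against skin. The list was led by Bhlhe40 (1.46 ± 0.17), Bcl6 (1.34 ± 0.14) and Irf8 (1.26 ± 0.18).

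Receptors, signal carriers and inhibitors for cytokines and TGF-beta, taken as inputs to the 4 factors, formed a list of 27, of which 23 were tested. Since the list mixes carriers and inhibitors such as Smad7, Ski and Skil, its counts give no direction of signalling. In intestine against spleen 8 were higher, 8 lower and 7 did not pass, with a median of 0.08 that was -0.08 with median scaling. The shares over all tested probes were 19.9% higher and 27.6% lower. The interleukin-21 receptor gene Il21r (3.71 ± 0.14, other probe 1.94), Jak2 (2.20 ± 0.18, other probe 0.40) and Stat3 (1.90 ± 0.14, other probe 2.44) were higher in intestine. Lower calls numbered 5 without either spleen array. In skin against spleen 1 was higher, 2 lower and 20 did not pass (median -0.12), shares no larger than the 10.8% and 12.1% over all probes. With median scaling 0 were higher and 8 lower, and with the deposited scaling alone 0 and 6. The passing members were Il12rb1 (0.59 ± 0.15), Il12rb2 (-0.64 ± 0.14) and Smad4 (-0.59 ± 0.13, other probe -0.91), and 0 passed without any one of the spleen or skin arrays. In intestine against skin 8 were higher, 5 lower and 10 did not pass (median -0.01), and 3 were lower without skin replicate II. Of all tested probes 16.7% were higher and 19.5% lower in intestine against skin, so the lower calls lay near that share. The largest differences were those of Il21r (3.41 ± 0.14), Il12rb2 and Jak2 (2.26 ± 0.18, other probe 0.04).

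Of 29 other T-box, ZEB and PRDM family genes, 13 were tested. In intestine against spleen 4 were higher, 3 lower and 6 did not pass (median -0.16, or 0 with bounds). Of all tested probes 19.9% were higher and 27.6% lower there, so the lower calls were no larger a share. Lower calls in intestine against spleen numbered 1 without either spleen array, and higher calls 2 without spleen replicate II. In skin against spleen the shares over all tested probes were 10.8% higher and 12.1% lower. Zeb1, the second ZEB repressor, ran opposite to Zeb2 in intestine, with signals of 160 and 155 in intestine, 78.6 and 83.5 in skin, and 101 and 104 in spleen. Intestine exceeded spleen 1.96-fold for Zeb1 (0.97 ± 0.13, other probe 1.55, limma adjusted p = 0.000232) and exceeded skin 2.0-fold (1.0 ± 0.13, other probe 1.62, limma adjusted p = 0.000244). Prdm2, a relative of Prdm1, was higher in intestine than in spleen (1.34 ± 0.17, other probe 1.57) and than in skin (1.08 ± 0.17, other probe 1.28), and Tbx6 was lower in intestine than in spleen (-0.83 ± 0.16). In skin against spleen 4 were higher, 1 lower and 8 did not pass (median 0.10, or -0.23 with median scaling), the lower one being Tbx6 (-0.96 ± 0.16), which did not pass without spleen replicate II (-0.91). The dim genes Tbx4 (0.58 ± 0.16) and Tbx3 (0.55 ± 0.15) were higher in skin, but 0 of the 4 higher calls were left without any one of the spleen or skin arrays. In intestine against skin 2 were higher, 2 lower and 9 did not pass, shares no larger than the 16.7% and 19.5% over all tested probes. The lower Prdm15 (-0.80 ± 0.19) did not pass without skin replicate II (-0.63).

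The genes whose log2 profiles, centred over the 6 arrays, came nearest to each factor were found by the root mean square difference among 13454 other genes. They were LOC269029 (0.0455), Xdh (0.0508) and Pik3r1 (0.0516) for Tbx21, whose own root mean square deviation was 0.163. For Eomes they were Zzz3 (0.0574), 4930486L24Rik (0.0614) and Ankle2 (0.0622), against its own 0.465. For Zeb2 they were Add3 (0.112), Haspin (0.123) and 6330500D04Rik (0.125), against its own 0.917. Add3 had signals of 42.2 and 49.1 in intestine, 164 and 183 in skin, and 325 and 364 in spleen. That its tissues had the same order as those of Zeb2 follows from how Add3 was picked. For the dim Prdm1 the nearest were 4933406P04Rik (0.0201), D130067I07Rik (0.0483) and C730046C01Rik (0.0485), against its own 0.283. The 4 factors differed from one another by 0.223 (Tbx21 and Prdm1) to 0.879 (Tbx21 and Zeb2), and Eomes and Zeb2 by 0.484. These values cannot be set against those of the nearest genes, which were picked among 13454 for the smallest difference. The measure is not scaled to the size of a profile, and 0.223 exceeds the 0.163 of Tbx21 itself.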

How the data were processed

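NK cell RNA of intestine, skin and spleen was measured on 2 Illumina BeadChips per tissue, read with BeadStudio 1.5.1.3 per the submitters' processing notes. Per the file headers, the deposited values are an average bead intensity and a detection p-value for each of 46643 probes. The values show that the authors' intensities were background-subtracted, with 30.7% to 32.7% of an array below 0, and scaled to one mean. No label or header says how either was done. A second deposited table holds the same intensities before scaling and gave the unscaled means.

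An offset of 16 was added, values at or under 1 were set to 1, and the log2 values were quantile normalized (limma 3.58.1, R 4.3.3). Probes were kept if both arrays of 1 or more tissues had a detection p under 0.01, 18583 in all. lmFit and eBayes were fitted to the 6 arrays with a mean per tissue, leaving 3 residual degrees of freedom (prior 6.92 degrees of freedom, prior SD 0.154), with Benjamini-Hochberg adjustment over all kept probes and a threshold of 0.05. The median SE was 0.152, and 2 arrays per tissue limit the precision. Replicate differences had SDs over probes of 0.32 in intestine, 0.26 in skin and 0.17 in spleen. The fit was tested on simulated data.

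Replicate numbers pair the samples through the slide, as the array names show, and replicate differences correlated at 0.107 between intestine and skin, 0.143 between intestine and spleen and 0.193 between skin and spleen. Lists use each gene's probe with the highest mean, and summed marker signals count values below 0 as 0. By rule, the text names the 4 genes, Rag2, Ncr1, Klrb1c, Ptprc, up to 3 called members with the largest differences per list and comparison, and the 3 nearest profiles per gene. Single marker genes are named outside it, after their values were seen, and some list members are not reported here. The members and lists were chosen with earlier results of these data known. Symbols were updated through RefSeq (GRCm38.p6), where 20147 probes had a current symbol, 12968 an older one and 11602 one not in its table. Alternatives varied the offset, scaling, filter, variance trend, slide block and replicates.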

Additional observations from a re-analysis of the deposited data

How the results depend on the processing

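The intestine differences of Eomes probe 1 and of Zeb2 probes 1 and 2, and the skin minus spleen difference of Zeb2 probe 1, kept direction and call in all alternatives tested. So did Eomes probe 2 in intestine minus spleen (-1.60 to -1.05) and in skin minus spleen (-1.29 to -0.90). For Zeb2 probe 1 the adjusted p ran from 1.29e-07 to 3.33e-05 in intestine minus spleen, from 0.000256 to 0.0442 in skin minus spleen and from 1.66e-05 to 0.00233 in intestine minus skin. For Eomes probe 1 it ran from 3.06e-05 to 0.00387 in intestine minus spleen and from 0.00053 to 0.0228 in intestine minus skin. Within slides, which give no test, Eomes probe 1 intestine minus spleen was -0.90 and -1.29, and Zeb2 probe 1 skin minus spleen was -0.85 and -1.09.

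Median scaling and the deposited scaling alone moved the median of all probes to -0.29 and -0.26 in intestine minus spleen, -0.22 and -0.15 in skin minus spleen, and -0.11 and -0.15 in intestine minus skin. Under them, skin minus spleen of Eomes probe 1 was -0.53 and -0.46 (limma adjusted p = 0.0261 and 0.0413; -0.31 relative to the median under median scaling), intestine minus spleen of Prdm1 was -0.40 and -0.37 (-0.10 relative to the median under both, against -0.24 with quantile normalization), and skin minus spleen of Tbx21 was -0.48 with median scaling (-0.25 relative to the median). Eomes probe 3 intestine minus spleen was -0.47 with median scaling (limma adjusted p = 0.0489). Higher calls made up 41.9% of all calls in intestine minus spleen, against 22.6% and 24.7%, 47.0% in skin minus spleen, against 22.0% and 30.7%, and 46.0% in intestine minus skin, against 37.5% and 33.6%.

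Prdm1 intestine minus skin lost its call with offsets of 32 and 64 (0.21 and 0.11), median scaling (0.36), the deposited scaling (0.32), no filter (0.38) and an intensity trend (0.38). Leaving out 1 array gave 0.35 to 0.42, and the call was lost for every array but intestine replicate II. Leaving out 1 array gave -0.71 to -0.66 for Prdm1 skin minus spleen, -0.29 to 0.04 for Tbx21 intestine minus spleen (0.0396 without spleen replicate II) and -0.25 to 0.23 for Eomes probe 3 intestine minus spleen. The cause was not tested.

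Probes passing numbered 8822 in intestine minus spleen (5211 to 9078 without 1 array, with 5211 and 5279 without spleen replicates I and II), 4253 in skin minus spleen (7059 with median scaling, 2277 with no filter, and 622 to 6422 without 1 array, with 632 and 622 without spleen replicates I and II, 1165 and 2482 without skin replicates I and II, and 6421 and 6422 without intestine replicates I and II) and 6727 in intestine minus skin (4925 to 7387). With the replicate block, 9483, 5114 and 7218 passed, and it changed no call of the 7 probes. Of the other genes named from the lists, 253 of 253 values kept their call over the alternatives in intestine minus spleen, 219 of 254 in skin minus spleen and 236 of 237 in intestine minus skin, and 0 reversed.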
